A study of Mus musculus with 6 samples.

Results

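The FK506-binding proteins, or FKBPs, are a family of immunophilins, and 10 of them were followed here in mouse embryos with and without functional Fkbp8: Fkbp8 itself, Fkbp1a, Fkbp2, Fkbp3, Fkbp4, Fkbp5, Fkbp7, Fkbp9, Fkbp10 and Fkbp11. The members were taken by gene symbol, Fkbp10 through its RefSeq accession, and 11 of the 34967 mouse transcript probes on each array belonged to them. Fkbp1a had 2 probes and every other member had 1. RNA was measured on 6 one-colour CodeLink arrays, 3 of Fkbp8 null embryos (samples 6, 9 and 11) and 3 of wild-type embryos (samples 7, 10 and 12). All samples came from a mixed C57BL/6 and 129S5/SvEvBrd stock at embryonic day 9.5, at a labelled average of 21.6 somite pairs, when the posterior neuropore was still open. The null allele is carried by the whole embryo, and the labels do not say how it was made. The dissection protocol describes the piece behind the forelimb. Posterior neural tube is the tissue label's wording, whereas the source label has the word anterior.

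FKBPs share a domain that binds the drugs FK506 and rapamycin and, in most members, catalyses the cis-trans isomerisation of peptide bonds before proline, a slow step of protein folding. The drug complex of Fkbp1a inhibits calcineurin or mTOR. The other members differ in where they sit and in the domains attached to the FKBP fold. Fkbp4, Fkbp5 and Fkbp8 carry tetratricopeptide repeats that dock on Hsp90, Fkbp3 is nuclear, and Fkbp2, Fkbp7, Fkbp9, Fkbp10 and Fkbp11 belong to the endoplasmic reticulum and secretory pathway. Fkbp8 is anchored in the membranes of mitochondria and the endoplasmic reticulum, binds Bcl2, acts as a receptor for mitophagy, and is known in the mouse as an antagonist of hedgehog signalling in the neural tube.

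The upstream promoter windows of the members with tetratricopeptide repeats are shown because they are the targeted gene and, of the other 9 members, those that share its repeats. Each window is the 250 bases before the gene's annotated start, from RefSeq on GRCm38.p6, read 5′ to 3′ on the gene's own strand, and capitals mark a GC box (GGGCGG) or a CCAAT box (CCAAT) on either strand. The Fkbp8 window lies at chr8:70527493-70527742 on the plus strand, the Fkbp4 window at chr6:128438657-128438906 on the minus strand, and the Fkbp5 window at chr17:28486150-28486399 on the minus strand.
Fkbp8: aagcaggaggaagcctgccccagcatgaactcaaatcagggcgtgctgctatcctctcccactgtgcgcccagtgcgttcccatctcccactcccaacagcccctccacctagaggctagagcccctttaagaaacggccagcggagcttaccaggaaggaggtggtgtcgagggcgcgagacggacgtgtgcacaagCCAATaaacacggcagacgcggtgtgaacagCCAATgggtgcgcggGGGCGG
Fkbp4: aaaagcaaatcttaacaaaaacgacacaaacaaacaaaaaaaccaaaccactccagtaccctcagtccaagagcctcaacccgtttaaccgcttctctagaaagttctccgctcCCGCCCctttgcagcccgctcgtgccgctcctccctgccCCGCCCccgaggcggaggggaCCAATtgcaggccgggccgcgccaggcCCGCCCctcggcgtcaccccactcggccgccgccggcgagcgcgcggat
Fkbp5: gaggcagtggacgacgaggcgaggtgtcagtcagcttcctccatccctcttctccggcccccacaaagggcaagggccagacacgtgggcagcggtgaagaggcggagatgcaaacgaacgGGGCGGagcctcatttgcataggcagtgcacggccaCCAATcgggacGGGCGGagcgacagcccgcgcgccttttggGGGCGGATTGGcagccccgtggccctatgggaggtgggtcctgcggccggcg
The Fkbp8 window held 1 GC box and 2 CCAAT boxes. The Fkbp4 window held 3 GC boxes and 1 CCAAT box, and the Fkbp5 window held 3 GC boxes and 2 CCAAT boxes. Over all 32851 RefSeq windows of this length, 32.7% held a GC box and 33.8% a CCAAT box. The 3 windows held 16, 25 and 23 CpG dinucleotides for Fkbp8, Fkbp4 and Fkbp5, where the median window held 6. The letters TATAAA, present in 12.4% of all windows, were in none of the 12 windows of the 9 members that matched. The GLI motif GACCACCCA (0.225% of all windows) and the glucocorticoid receptor letters AGAACA (16.1%) were also in none of them on either strand. The motifs searched do not overlap in the windows shown. A match describes the letters in the window and no binding was measured.

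On each array 63.3% to 69.2% of the transcript spots were above the near-background flag, and the median spot was 2.33 to 3.80 times the median negative control. The arrays resembled each other, with a mean correlation to the other arrays of 0.980 to 0.985. Markers of several tissues were present. All 6 posterior axis markers and all 5 neural tube markers were above background on every array, and so were all 4 primitive blood markers, 5 of 6 somite and mesenchyme markers and 3 of 5 head markers. Otx2, a forebrain and midbrain gene, was near background on all 6 arrays. Wild-type sample 10 stood apart from the other samples in sex-linked genes, with a log2 signal of 10.35 for Xist, where the others had 5.98 to 6.53, and 6.16 for Eif2s3y, where the others had 8.63 to 8.90. It also had the lowest summed raw intensity of the posterior axis markers, 2446, against 4520 to 6388 in the null samples and 6424 and 7389 in the other wild-type samples. Because the tissue was taken in bulk, fewer cells of a type and less RNA per cell cannot be told apart. The labels do not say whether the samples came from separate litters or from single embryos, so every p-value reflects sample-to-sample spread, which may be technical, and precision is limited by having 3 arrays per genotype.

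Fkbp8 signal was low in the null samples. Its background-corrected raw intensity was 24.7, 28.9 and 35.7 in null samples 6, 9 and 11, all flagged near background, and 123, 183 and 486 in wild-type samples 7, 10 and 12, all flagged good. These are 1.13, 1.54 and 1.85 times the array's negative control median in the null samples, against 5.41, 8.22 and 26.2 times in the wild-type samples. The groups did not overlap, and the wild-type samples themselves differed by 3.94 times between the lowest and the highest. On the quantile-normalized log2 scale, after an offset of 50 was added, the signal averaged 6.32 ± 0.10 in null embryos and 8.09 ± 0.53 in wild-type embryos (SD, n = 3 each). Since the probe was not well above background on any null array, only a bound can be given for the fold between the measured means. With null values raised to the lowest signal above background, the null mean was 3.33-fold lower. That bound carries no sampling error. The 95% interval of the fitted null to wild-type ratio was 0.202 to 0.425 on the offset scale. The fitted difference was -1.77 ± 0.23 (SE; 95% interval -2.31 to -1.23), with a limma adjusted p of 0.392 over 21243 probes, above the threshold of 0.05. Without wild-type sample 12 the difference was -1.41 and the limma adjusted p was 0.0715. With no offset and a floor at 1 the fitted difference was -2.89, since its size is set by the offset where the null values lie at background, while the direction held in every setting that tested it. The position of the probe within the transcript is not known here, nor which exons the allele removes, so the low signal checks the labels only as far as the stretch under the probe.

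**Figure D1:**
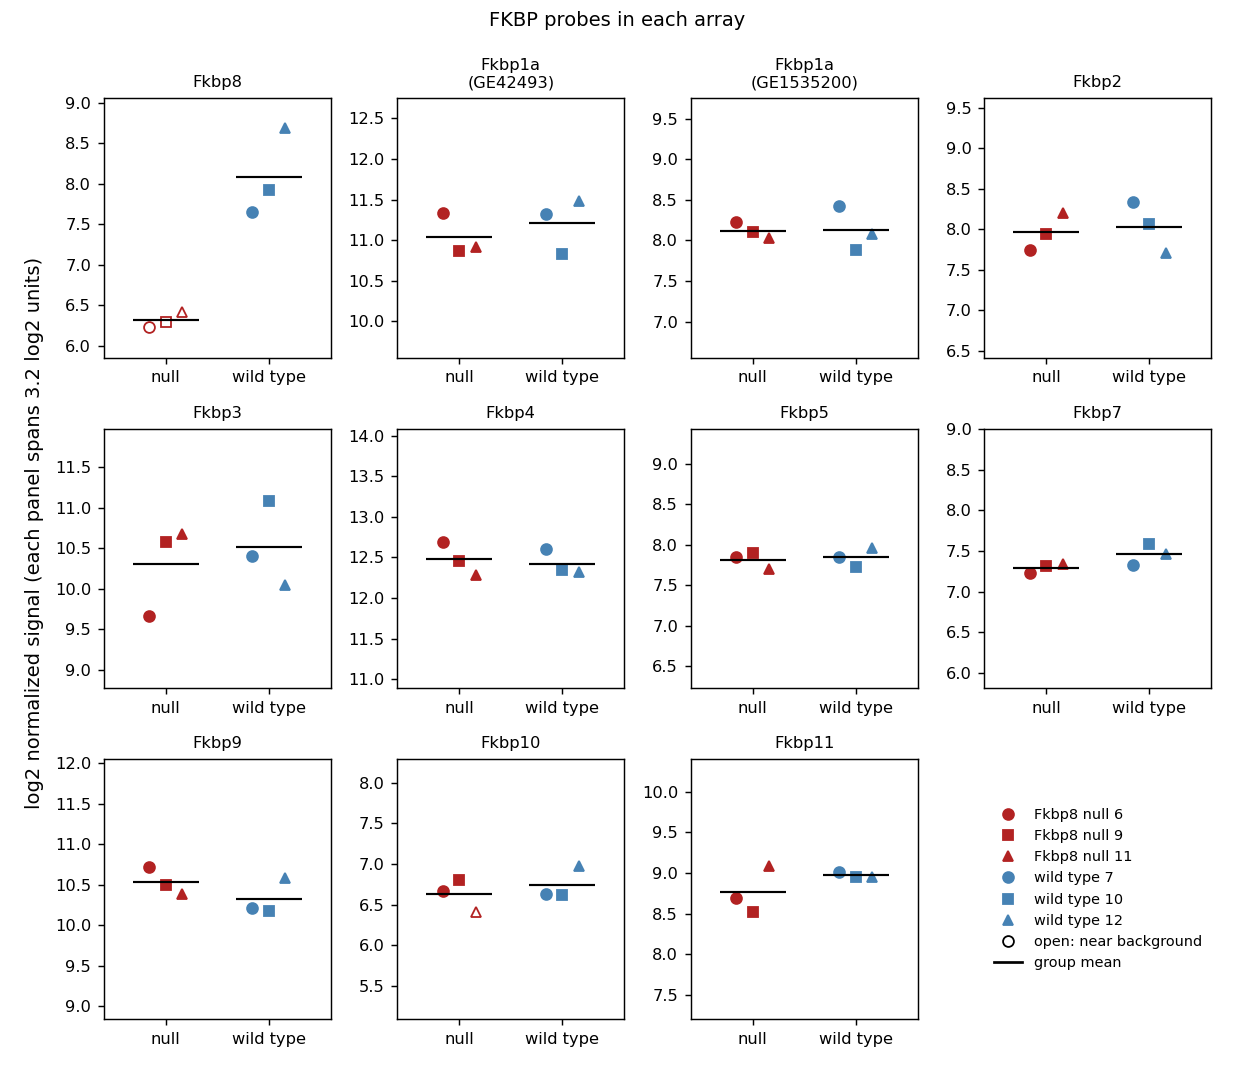
Log2 normalized signal of each FKBP probe (y axis) in the 3 null samples, drawn left, and the 3 wild-type samples, drawn right, with group means as lines and open symbols for spots flagged near background. The Fkbp8 points lie at 6.23 to 6.42 in null embryos and 7.66 to 8.68 in wild-type embryos, while the points of every other probe overlap between the groups.

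The wild-type spread of Fkbp8 was larger than that of 97.7% of tested probes, and its null spread was larger than that of 37.5%. Null samples 6, 9 and 11 lay within 0.19 of each other on the log2 scale, close to the array background, while the wild-type samples ranged over 1.02.

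Fkbp4 and Fkbp5, which with Fkbp8 carry tetratricopeptide repeats, showed no difference past the threshold. Fkbp4, the Hsp90 co-chaperone that supports steroid receptor activity, had raw intensities of 5398, 6211 and 5508 in null samples 6, 9 and 11 and 5085, 5210 and 6095 in wild-type samples 7, 10 and 12. The groups overlapped, and the signal averaged 12.48 ± 0.20 in null embryos and 12.42 ± 0.15 in wild-type embryos (SD, n = 3 each). The log2 difference was 0.06 ± 0.13 (SE; 95% interval -0.25 to 0.36, limma adjusted p = 0.9999), and it was -0.05 without null sample 6. The array's accession for this probe is a cDNA tag that differs from the platform annotation's accession.

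Fkbp5, the Hsp90 co-chaperone that restrains the glucocorticoid receptor and is itself induced by glucocorticoids, had raw intensities of 141, 217 and 168 in null samples 6, 9 and 11 and 145, 152 and 268 in wild-type samples 7, 10 and 12. Wild-type sample 12 was the highest in raw and normalized signal, and the groups overlapped. After normalization the signal averaged 7.81 ± 0.10 in null embryos and 7.84 ± 0.12 in wild-type embryos. The difference was -0.03 ± 0.11 (SE; 95% interval -0.28 to 0.22, limma adjusted p = 0.9999), which as a fold covers 0.826 to 1.16 on the offset scale. It was 0.03 without null sample 11 and also 0.03 without wild-type sample 12.

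Fkbp1a, the small cytosolic member that binds receptors of the TGF-beta family and calcium release channels, was read by 2 probes. The brighter probe, GE42493, had raw intensities of 2067, 2104 and 2081 in null samples 6, 9 and 11 and 1996, 1673 and 3470 in wild-type samples 7, 10 and 12. Wild-type sample 12 had the highest and wild-type sample 10 the lowest value, so the null samples lay inside the wild-type range. Its signal averaged 11.04 ± 0.26 in null embryos and 11.21 ± 0.34 in wild-type embryos, a difference of -0.17 ± 0.19 (SE; 95% interval -0.61 to 0.27, limma adjusted p = 0.9999). The dimmer probe, GE1535200, had 195, 262 and 224 in null samples and 231, 177 and 297 in wild-type samples, in the same order. It averaged 8.12 ± 0.10 in null embryos and 8.13 ± 0.28 in wild-type embryos, a difference of -0.01 ± 0.15 (SE; 95% interval -0.34 to 0.33). For this probe the difference was 0.14 without wild-type sample 7 and 0.04 without null sample 11. The 2 probes do not give the same size, and neither passed the threshold.

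Fkbp3, the nuclear member that binds DNA and RNA, varied widely within both groups. Its raw intensity was 601, 1720 and 1752 in null samples 6, 9 and 11 and 1014, 2040 and 1328 in wild-type samples 7, 10 and 12. Null sample 6 was the lowest of all and wild-type sample 10 the highest, and the groups overlapped. Normalized signal averaged 10.31 ± 0.56 in null embryos and 10.51 ± 0.53 in wild-type embryos, spreads larger than those of 99.4% and 97.6% of tested probes in the same groups. The difference of -0.21 ± 0.32 (SE; 95% interval -0.94 to 0.53, limma adjusted p = 0.9999) was smaller than the spread within either group, and it was 0.12 without null sample 6 and 0.08 without wild-type sample 10. The mean log2 signal of the primitive blood markers was 10.1, 11.3 and 11.1 in the null samples and 10.1, 11.8 and 10.8 in the wild-type samples, in the same sample order. All 4 blood markers were above background on every array, with summed raw intensities of 7884 to 28413 in null samples and 10665 to 39307 in wild-type samples. Their part in the Fkbp3 spread was not tested. The array's accession for this probe also differs from the platform annotation's accession.

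None of the 5 members of the endoplasmic reticulum and secretory pathway differed past the threshold. Fkbp2, a lumenal protein, had raw intensities of 130, 226 and 260 in null samples 6, 9 and 11 and 216, 206 and 209 in wild-type samples 7, 10 and 12. The wild-type raw values lay inside the null range. The normalized signal averaged 7.96 ± 0.23 in null embryos and 8.03 ± 0.32 in wild-type embryos, a difference of -0.07 ± 0.18 (SE; 95% interval -0.48 to 0.34), which was 0.04 without null sample 6 and 0.08 without wild-type sample 7.

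Fkbp7, which binds the chaperone BiP in the endoplasmic reticulum, had raw intensities of 81.7, 122 and 118 in null samples 6, 9 and 11 and 92.9, 135 and 164 in wild-type samples 7, 10 and 12. After normalization its log2 signal was 7.23, 7.31 and 7.34 in the null samples and 7.32, 7.59 and 7.46 in the wild-type samples. The groups overlapped only in that null sample 11 lay above wild-type sample 7. The means were 7.29 ± 0.06 in null embryos and 7.46 ± 0.13 in wild-type embryos, a difference of -0.16 ± 0.10 (SE; 95% interval -0.40 to 0.07, limma adjusted p = 0.9999). Of the members other than Fkbp8, Fkbp7 had the smallest p. Its signal followed the mean of the neural tube markers over the 6 arrays (r = 0.94), the highest of 88 correlations computed between the member probes and the marker lists, all over arrays that share the genotype groups. All 5 neural tube markers were above background on every array. Their summed raw intensities, not normalized between arrays, were 904 to 1597 in null samples and 1050 to 1979 in wild-type samples. The markers did not all move the same way. The log2 difference was -0.76 for Pax6, -0.19 for Sox1, -0.17 for Nes, -0.10 for Sox3 and 0.15 for Sox2. Their part in the Fkbp7 difference was not tested.

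Fkbp9, a lumenal member with several FKBP domains, had raw intensities of 1324, 1628 and 1407 in null samples 6, 9 and 11 and 887, 1051 and 1923 in wild-type samples 7, 10 and 12. Wild-type samples 7 and 10 lay below every null sample and wild-type sample 12 lay above them in raw signal. It averaged 10.53 ± 0.17 in null embryos and 10.32 ± 0.23 in wild-type embryos after normalization, a difference of 0.21 ± 0.14 (SE; 95% interval -0.12 to 0.54, limma adjusted p = 0.9999), the largest positive difference among the members. It was 0.34 without wild-type sample 12, 0.14 without wild-type sample 10 and 0.12 without null sample 6, none past the threshold. The array's accession for this probe is again a cDNA tag that differs from the platform annotation's accession.

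Fkbp10, a chaperone of procollagen and tropoelastin in the endoplasmic reticulum, was dim. Its raw intensity was 45.5, 67.5 and 34.8 in null samples 6, 9 and 11 and 44.6, 46.4 and 92.5 in wild-type samples 7, 10 and 12. The value of null sample 11 was flagged near background, so 2 of the 3 null samples measured it. The groups overlapped, with a log2 signal of 6.63 ± 0.20 in null embryos and 6.74 ± 0.20 in wild-type embryos and a difference of -0.11 ± 0.14 (SE; 95% interval -0.44 to 0.22). The difference came to 0.000289 without null sample 11 and 0.0085 without wild-type sample 12. The platform annotation gives this probe no symbol, and it was named through the RefSeq accession in the array file.

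Fkbp11, a membrane-bound member known from secretory cells, had raw intensities of 283, 370 and 532 in null samples 6, 9 and 11 and 364, 421 and 598 in wild-type samples 7, 10 and 12. After normalization the log2 signal was 8.69, 8.52 and 9.08 in the null samples and 9.02, 8.95 and 8.95 in the wild-type samples. Null samples 6 and 9 lay below every wild-type sample and null sample 11 above them all. The wild-type spread of 0.04 (SD, n = 3) was larger than that of only 5.53% of tested probes, while the null spread of 0.29 was larger than that of 92.3%. The difference was -0.21 ± 0.14 (SE; 95% interval -0.54 to 0.12, limma adjusted p = 0.9999), and it was -0.36 without null sample 11 and -0.09 without null sample 9, neither past the threshold.

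**Figure D2:**
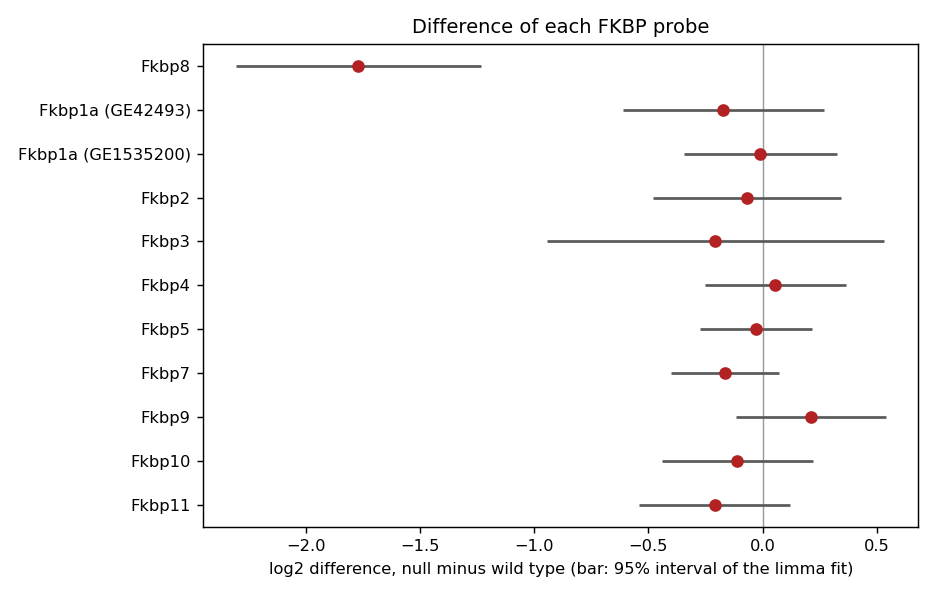
Log2 difference, null minus wild type, of each FKBP probe (x axis, with 95% intervals from limma), 1 row per probe. The Fkbp8 interval runs from -2.31 to -1.23, and the interval of each other probe includes 0.

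Across the family, none of the 11 probes passed the adjusted threshold, where 1 of 21243 probes did (0.00471%), Tm7sf3, at a limma adjusted p of 0.00306, named here after its value was seen. With an unadjusted p under 0.05 there was 1 member probe, that of Fkbp8, beside 3.08% of all probes tested. It was lower in null embryos, beside 1.33% of all probes, and no member probe with such a p was higher, beside 1.75% of all probes. The groups did not overlap for 1 member probe, again that of Fkbp8, beside 8.87% of the 20080 probes with all 6 values. The null mean was lower for 9 of the 11 probes, beside 49.2% of all probes, and the median member difference was -0.11, beside 0.00 over all probes. Without Fkbp8, 8 of 10 probes were lower, with a median of -0.09 and a range of -0.21 to 0.21. For the 6 probes whose sign turned when a sample was left out, the direction in these counts rests on single samples. All 11 member probes passed the filter on dim probes, those of Fkbp8 and Fkbp10 through their wild-type samples alone. The unadjusted p under 0.05 and the missing overlap of Fkbp8 therefore describe the targeted gene and lend nothing to the family.

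**Figure D3:**
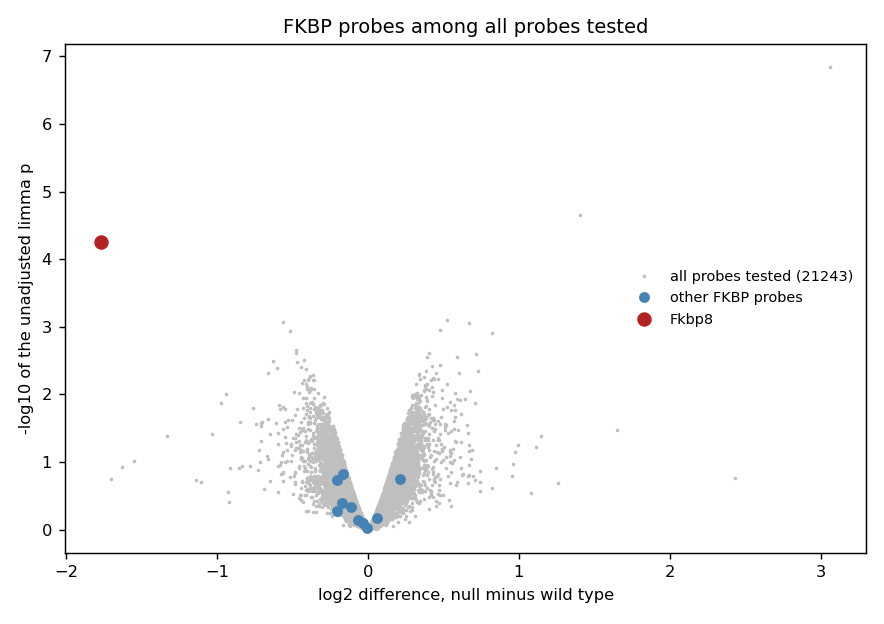
Log2 difference, null minus wild type (x axis), against -log10 of the unadjusted limma p (y axis) for all 21243 tested probes, in grey, with Fkbp8 in red and the other FKBP probes in blue. Fkbp8 lies at -1.77 at the far left, and the other FKBP probes lie between -0.21 and 0.21 at the foot of the plot.

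The intervals set how large a difference in the other members could have been missed. On the offset scale, the 95% interval of the null to wild-type ratio ran from 0.757 to 1.05 for Fkbp7, from 0.841 to 1.29 for Fkbp4 and from 0.688 to 1.09 for Fkbp11. It was widest for Fkbp3, at 0.520 to 1.44. A p above the threshold does not show that a member was equal between the genotypes. Levels of different members are not set against each other, because probes of different sequence differ in brightness for the same amount of RNA. The array therefore gives no abundance of a paralog relative to Fkbp8, and each value above is to be read only against the same probe in the other samples.

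The member probes varied in different ways from sample to sample. Over the 6 arrays, the correlation with Fkbp8 was 0.73 for Fkbp7, 0.52 for Fkbp11, 0.48 for Fkbp10, 0.29 for Fkbp5, 0.12 for Fkbp3 and -0.08 for Fkbp2, and it was -0.33 for Fkbp9 and -0.37 for Fkbp4. The 2 Fkbp1a probes had 0.41 and -0.12. Among the 55 pairs of member probes, Fkbp5 and Fkbp10 were the most alike (r = 0.92), and Fkbp3 and Fkbp9 the most opposed (r = -0.84). Outside the family, the named probes most like Fkbp8 were Higd2a (0.997), Mettl27 (0.992) and Ager (0.986), with log2 differences of -0.27, -0.11 and -0.17, far smaller than that of Fkbp8. For Fkbp7 they were Isoc2b (0.982), Olfr745 (0.976) and Zfp869 (0.973). These correlations describe 6 arrays that share 2 genotype groups, and the most alike probes were picked from 21243.

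The relatives of the family outside the 10 members also showed no call. Of 7 other FKBP-fold and FKBP-related genes, 6 were tested, 5 lower and 1 higher in null embryos, with a median of -0.09. Fkbp1b, a close relative of Fkbp1a, was near background on all 6 arrays. Aipl1, a co-chaperone known from photoreceptors, had a difference of -0.22 ± 0.12 (SE) at its brighter probe, and its other probe was near background on all arrays. Among 15 tested cyclophilins and parvulins, the other families of proline isomerases, 5 were lower and 10 higher with a median of 0.07. Ppid, the cyclophilin that docks on Hsp90 as Fkbp4 and Fkbp5 do, had 0.09 ± 0.14, and it was -0.02 without wild-type sample 12. Ppie, a spliceosomal cyclophilin, had 0.18 ± 0.11, and Ranbp2, a nucleoporin with a cyclophilin domain, had 0.28 ± 0.17. The Ranbp2 probe was above background on 3 null arrays and 2 wild-type arrays, and its difference was 0.07 without wild-type sample 12 and 0.54 with no offset and a floor at 1.

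The targets of the drug complexes were tested for all 13 genes listed, with 3 lower, 10 higher, a median of 0.06 and no probe past the adjusted threshold. Ppp3ca, a catalytic subunit of calcineurin, had raw intensities of 292, 494 and 418 in null samples 6, 9 and 11 and 252, 293 and 346 in wild-type samples 7, 10 and 12. The raw values overlapped between the groups, since null sample 6 lay below wild-type samples 10 and 12, while the normalized values did not overlap. The normalized signal averaged 8.80 ± 0.07 in null embryos and 8.43 ± 0.15 in wild-type embryos, a difference of 0.37 ± 0.11 (SE; 95% interval 0.12 to 0.62, limma adjusted p = 0.9999). It was the 1 gene of this list with an unadjusted p under 0.05, beside 3.08% of all probes. At the brightest probe, 3 of the 13 did not overlap between groups, beside 8.87% of all probes. These were Ppp3ca, Ppp3cb and Nfatc2, all higher in null embryos. Ppp3cb had 0.15 at that probe and 0.04 at its other tested probe, where the groups overlapped. That other probe was above background on 3 null arrays and 1 wild-type array. Mtor, the kinase inhibited by rapamycin, had 0.11 ± 0.10, and Nfatc3, a transcription factor activated by calcineurin, had 0.21 ± 0.12. Of the receptors and channels that Fkbp1a binds, 7 were tested, 3 lower and 4 higher, with a median of 0.04. Acvr1, a BMP receptor, had 0.15 ± 0.14, and Itpr2, a calcium release channel, had 0.17 ± 0.10 at its brighter probe and -0.02 at its other tested probe. Itpr2 was the 1 gene of the 7 whose groups did not overlap at its brightest probe, beside 8.87% of all probes. Ryr1, another release channel, had 0.04 ± 0.10 at its brightest probe, where the groups overlapped. A dimmer Ryr1 probe had no overlap (6.54 ± 0.10 in null embryos and 6.34 ± 0.02 in wild-type embryos), beside 8.87% of all probes. It was above background on 3 null arrays and 1 wild-type array, so it entered the test through its null samples.

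The Hsp90 system and the steroid receptors work with Fkbp4 and Fkbp5. Of these genes 10 were tested, 5 lower and 5 higher, with a median of 0.00. Hsp90aa1, an inducible cytosolic Hsp90, had 0.04 ± 0.13, and its sign turned without wild-type sample 7 (-0.04), null sample 9 (-0.02) or null sample 11 (-0.01). Cdc37, the kinase co-chaperone, had -0.09 ± 0.10, and Stub1, a ubiquitin ligase of the chaperone system, had 0.17 ± 0.12. Nr3c1, the glucocorticoid receptor, was above background on 1 null array and 0 wild-type arrays and was not tested. Of 8 genes known to respond to glucocorticoids, Fkbp5 not counted, 1 was lower and 7 were higher, with a median of 0.15 and none past the adjusted threshold. Zbtb16, a zinc finger repressor, averaged 6.57 ± 0.12 in null embryos and 6.27 ± 0.20 in wild-type embryos (SD, n = 3 each). It was above background on 3 null arrays and 1 wild-type array, so it entered the test through its null samples, and its difference depends on the offset (0.30, or 0.76 with no offset and a floor at 1). Klf9, a transcription factor, had 0.20 ± 0.10 at its brighter probe and 0.11 at its other probe. The groups did not overlap for 2 of the 8, Klf9 and Errfi1, both higher in null embryos, beside 8.87% of all probes.

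In the secretory pathway, 15 collagen and elastin genes and enzymes were tested, 5 lower and 10 higher with a median of 0.10. P4ha1 and P4hb, the subunits of prolyl hydroxylase, had 0.15 ± 0.09 and 0.19 ± 0.10, and these were the 2 of the 15 whose groups did not overlap, beside 8.87% of all probes. Among 9 tested chaperones of the endoplasmic reticulum 4 were lower and 5 higher, with a median of 0.01. Calr, a lectin chaperone, had -0.20 ± 0.12, and Pdia4, a disulfide isomerase, had 0.29 ± 0.17 with a sample's value missing. Of the binding partners of Fkbp8, 11 were tested, 5 lower and 6 higher, with a median of 0.02. Bcl2, the apoptosis inhibitor that Fkbp8 anchors at mitochondria, had 0.10 ± 0.12, and it was -0.02 without wild-type sample 10. Rheb, the GTPase upstream of mTOR, had 0.11 ± 0.12, and Map1lc3a, an autophagosome protein bound by Fkbp8 in mitophagy, had -0.36 ± 0.26, which was -0.09 on leaving out wild-type sample 12 and -0.62 on leaving out wild-type sample 10. Phb, a mitochondrial prohibitin, had 0.05 ± 0.23 at its brighter probe, where the groups overlapped. Its dimmer probe went the other way (6.52 ± 0.17 in null embryos and 6.78 ± 0.04 in wild-type embryos). There the groups did not overlap, beside 8.87% of all probes. The dimmer probe was above background on 2 null arrays and 3 wild-type arrays, so it entered the test through its wild-type samples. Calm2, which encodes the calmodulin that Fkbp8 binds, had 0.34 ± 0.17 at its brighter probe and 0.16 at its other tested probe. No gene of these 9 lists passed the adjusted threshold in limma. Over all probes tested, 49.2% were lower in null embryos and the median difference was 0.00, and no list was tested against these values.

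**Figure D4:**
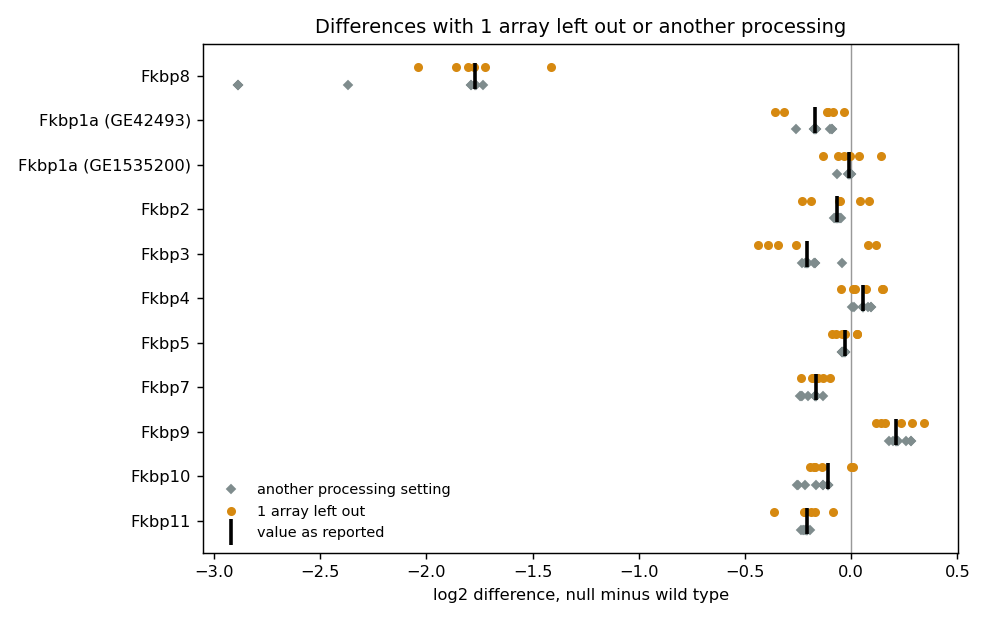
Log2 difference, null minus wild type (x axis), of each FKBP probe, 1 row per probe. Black lines are the values given in the text, orange circles leave out 1 array each, and grey diamonds are other processing settings. Fkbp8 lies between -2.89 and -1.41, and the other probes lie between -0.44 and 0.34.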

How the data were processed

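The spot intensities were deposited by the authors as CodeLink scanner output. Per the file headers, CodeLink Expression Analysis wrote raw and normalized intensities and a quality letter for each spot. The raw intensity is already background-corrected, since 38 to 67 spots per array lie below 0. The authors' value table was set against the scanner values: it is that normalized intensity times a factor of 1.01 to 1.02 per array, a linear signal that is not centred by gene, with column medians of 1.009, 1.003 and 1.004 for null samples 6, 9 and 11 and 1.008, 1.009 and 1.006 for wild-type samples 7, 10 and 12. Its direction is that of intensity. After a floor at 0 and an offset of 50, raw intensities were taken to log2 and quantile normalized across the 34967 transcript spots. Irregular, contaminated and defective spots were dropped first, 391 to 543 on an array; saturated ones stayed. The 21243 probes tested had no near-background flag in at least 1 whole group and 2 or more usable values in each group. Differences, null minus wild type, were tested two-sided with limma 3.58.1 (lmFit, eBayes; R 4.3.3) and adjusted by Benjamini-Hochberg, and the procedure was tested on simulated data. The offset shrinks the differences of dim probes.

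Where all arrays of a group had a probe near background, the fold bound used, per array, either the lowest signal of any probe above background or the probe's own, whichever was higher. Names came from the platform annotation, updated through Entrez numbers with RefSeq (GRCm38.p6; 21487 spots matched, 128 kept the platform's name, 499 were named through their accession, 681 had several symbols and 12172 had none). Control summary files were not used. Named genes were all members, the 2 genes with the smallest p in each context list and Ppid, Hsp90aa1, Hsp90ab1, Ppp3ca, Mtor, Nr3c1, Bcl2 and Rheb. A gene that this rule names is not reported here. Hsp90ab1 was 1 of the listed genes with no probe of a single symbol. A gene with several probes was read at the one with the highest mean. The members and lists were chosen with earlier results of these data known.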

Additional observations from a re-analysis of the deposited data

How the results depend on the processing

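The Fkbp8 difference stayed negative and short of the adjusted threshold in each of the 16 alternatives that gave it a value, from -2.89 to -1.73 with other processing (limma adjusted p 0.163 to 0.99998) and from -2.04 to -1.41 with a sample left out (0.0715 to 0.9999). With only probes above background on all 6 arrays Fkbp8 was not tested, and the members with an unadjusted p under 0.05 were then 0, against 1. Leaving out a sample gave 1 to 2, with Fkbp11 the second without null sample 11 and Fkbp9 the second without wild-type sample 12. No member passed the adjusted threshold in any alternative. Over all probes, 1 passed, against 0 with the floor at 1, median scaling, cyclic loess, the scanner's normalized intensity, the authors' value table or only probes above background on all arrays, 2 with every flagged spot kept, and 0 to 1 with a sample left out. The count with an unadjusted p under 0.05 was 654 of 21243 probes tested (3.08%). It was 292 (1.37%) with median scaling, 392 (1.84%) without null sample 9 and 1355 (6.30%) without wild-type sample 10. The cause of these changes in share was not tested. Without the filter on dim probes the count was 1096, but of 34773 probes tested, a share of 3.15%. For the other member probes, 108 of 109 values with other processing kept their direction, the exception being Fkbp1a at GE1535200 with the scanner's normalized intensity (0.000242). With a sample left out, 11 of 60 turned sign, in 6 probes: the ranges were -0.13 to 0.14 for Fkbp1a at GE1535200, -0.23 to 0.082 for Fkbp2, -0.44 to 0.12 for Fkbp3, -0.048 to 0.15 for Fkbp4, -0.091 to 0.029 for Fkbp5 and -0.19 to 0.0085 for Fkbp10. The other members kept their sign, from -0.36 to -0.036 for Fkbp1a at GE42493, -0.24 to -0.099 for Fkbp7, 0.12 to 0.34 for Fkbp9 and -0.36 to -0.087 for Fkbp11. Among the context genes the ranges that crossed 0 were -0.018 to 0.19 for Ppid, -0.036 to 0.14 for Hsp90aa1 and -0.022 to 0.19 for Bcl2. Dim probes such as Fkbp8 and Fkbp10 are limited by their signal over background. No paired analysis was possible because the null and wild-type samples share no sample number.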
